A study of Mus musculus with 8 samples.

Results

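Syndecans and glypicans are the cell-surface heparan sulfate proteoglycans, and their 10 mouse genes (Sdc1 to Sdc4 and Gpc1 to Gpc6) were taken by symbol from a table of raw counts for 26667 genes. All 10 were listed, and 9 of them passed the filter on low counts that left 14867 genes to test. RNA was sequenced from fixed, paraffin-embedded sections of undifferentiated pleomorphic sarcoma (UPS), a soft tissue sarcoma without a clear line of differentiation, with 1 library per tumour. KP tumours (n = 4, KP 5 to KP 8) carried Trp53 fl/fl. KPH2 tumours (n = 4, KPH2 1 to KPH2 4) carried the same alleles and Epas1 fl/fl, so that Cre also removed Epas1, the gene of the hypoxia-inducible factor HIF-2α. In both groups Cre came from an adenovirus injected into a hind limb muscle of mice aged 8 weeks or more, on a mixed 129/C57BL/6 background, and the mice were killed 7 weeks later or at the largest permitted tumour size. Cells the virus did not reach, such as vessel and immune cells that enter the tumour, keep intact Epas1 in a KPH2 section. The comparison asks which proteoglycan genes differed between tumours with and without HIF-2α.

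Syndecans span the membrane and signal through a short cytoplasmic tail, whereas glypicans are held to the outer leaflet by a glycosylphosphatidylinositol anchor. Through their heparan sulfate chains both families bind growth factors such as fibroblast growth factors, Wnts and Hedgehogs and present them to receptors, and syndecans also act with integrins in adhesion to matrix. In skeletal muscle, Sdc3 and Sdc4 are known from satellite cells, the stem cells of the fibre, while Sdc1 is best known from epithelia and plasma cells.

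Total counts per tumour ran from 6463221 to 13155510, and the members together took 0.0999% to 0.137% of them in 7 tumours and 0.0721% in KPH2 1. KPH2 1 is shown apart because the study set aside 1 knockout tumour as a technical outlier and a deposited table of 7 tumours lacks this one. Levels are counts scaled to a common library size as CPM after TMM scaling. Epas1 was at 59.6, 82.2, 85.5 and 85.1 CPM in KP 5 to KP 8, at 32.0 in KPH2 1 and at 54.2, 37.8 and 42.4 in KPH2 2 to KPH2 4. Every KPH2 tumour was below every KP tumour, although the log2 fold change of -0.81 (SE 0.19) over 7 tumours missed the threshold (edgeR quasi-likelihood test, Benjamini-Hochberg adjusted p = 0.0742), and without KP 5 it passed (-0.92, adjusted p = 0.0442). Counts over the whole gene can include exons outside any deleted stretch and RNA from host cells.

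Marker RNA of other cell types differed between the libraries. The 29 skeletal muscle markers summed to 1969 to 3613 CPM in KP tumours and 1525 in KPH2 1. In KPH2 2 to KPH2 4 they summed to 12953, 20268 and 4409 CPM. All 29 had a positive fold change (2 past the threshold, 26 at an unadjusted p under 0.05). Satellite cell and myoblast markers summed to 37.6 to 114 CPM in KP, 32.8 in KPH2 1 and 198 to 429 in KPH2 2 to KPH2 4. All 6 tested had a positive fold change (median log2 fold change 3.85, 2 past the threshold, 6 at an unadjusted p under 0.05). The 8 epithelial markers summed to 6.42 to 10.8 CPM in KP, 59.5 in KPH2 1 and 481, 52.9 and 525 in KPH2 2 to KPH2 4. All 4 epithelial markers tested had a positive fold change and 2 passed, Krt8 and Krt18, keratins of simple epithelia. Cdh1 was at 6.86 and 10.8 CPM in KPH2 2 and KPH2 4, at 0.157 and 1.51 in KPH2 1 and KPH2 3 and at 0.448 to 2.19 in KP, Epcam stayed at or below 1.42 in every tumour, and Krt5, Krt14 and Krt1, keratins of stratified epithelia, were at 0 throughout. Macrophage markers summed to 2489 to 4459 CPM in KP, 2242 in KPH2 1 and 1851 to 2684 in KPH2 2 to KPH2 4, and all 10 had a negative fold change (0 past the threshold, 5 at an unadjusted p under 0.05). Endothelial markers summed to 357 to 610, 254 and 344 to 356 CPM in the same order, with 8 of 10 negative (0 past the threshold, 4 at an unadjusted p under 0.05). Mesenchymal markers, high in sarcoma cells and fibroblasts, summed to 17850 to 41927 CPM over all tumours, mostly Fn1 and collagens. Of these 9 markers, 7 had a negative fold change (median log2 fold change -0.30) and 1 passed, Pdgfra, at 709 to 1503 CPM in KP, 627 in KPH2 1 and 227 to 274 in KPH2 2 to KPH2 4. Plasma cell markers summed to 93.7 to 191 CPM over all 8 tumours, Schwann cell markers to 94.6 to 160 and adipocyte markers to at most 40.0. In sections of whole tumour, a change in the number of cells of a type and in RNA per cell cannot be told apart. Marker RNA made by the sarcoma cells themselves cannot be told apart from that of other cells either.

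The start regions of the members are shown because HIF dimers are known to bind the core letters ACGTG or GCGTG. RefSeq entries of GRCm38.p6 were at hand for 7 of the 10 members (not for Sdc2, Gpc1 and Gpc6). The 250 bases before the start are printed for Sdc1 and Sdc4, the members that passed the test over 7 tumours, and for Sdc3 and Gpc4, which were more abundant than Sdc1 in KP and did not pass. Capitals mark GCGTG on either strand (CACGC when read on the printed strand) and TATAA on the gene's strand.
Sdc1, chr12:8771146-8771395, plus strand: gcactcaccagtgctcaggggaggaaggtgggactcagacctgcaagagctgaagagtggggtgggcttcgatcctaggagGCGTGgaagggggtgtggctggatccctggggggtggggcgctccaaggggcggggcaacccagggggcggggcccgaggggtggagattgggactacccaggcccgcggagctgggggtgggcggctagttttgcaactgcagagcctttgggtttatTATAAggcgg
Sdc4, chr2:164443189-164443438, minus strand: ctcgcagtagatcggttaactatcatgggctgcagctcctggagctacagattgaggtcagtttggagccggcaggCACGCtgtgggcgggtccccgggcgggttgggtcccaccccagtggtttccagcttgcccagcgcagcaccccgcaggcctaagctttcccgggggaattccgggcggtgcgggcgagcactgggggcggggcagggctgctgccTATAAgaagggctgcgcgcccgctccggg
Sdc3, chr4:130792287-130792536, plus strand: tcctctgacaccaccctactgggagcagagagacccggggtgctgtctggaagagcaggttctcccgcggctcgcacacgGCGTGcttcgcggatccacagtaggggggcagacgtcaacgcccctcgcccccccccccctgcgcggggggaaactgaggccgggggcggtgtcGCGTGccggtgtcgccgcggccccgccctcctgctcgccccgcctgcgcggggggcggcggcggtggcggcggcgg
Gpc4, chrX:52164924-52165173, minus strand: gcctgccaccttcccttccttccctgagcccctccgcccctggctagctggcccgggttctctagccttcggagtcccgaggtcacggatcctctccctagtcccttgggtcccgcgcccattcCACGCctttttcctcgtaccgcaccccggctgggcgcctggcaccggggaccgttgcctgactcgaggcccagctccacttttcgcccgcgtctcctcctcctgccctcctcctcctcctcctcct
All 7 members held GCGTG at least once and 0 of them held ACGTG, where either core is found in 38.6% of 27025 start regions of this length, ACGTG in 16.6% and GCGTG in 28.2%. The single GCGTG lay 169 bases before the start in Sdc1, 174 in Sdc4 and 126 in Gpc4, and Sdc3 held 2. The start regions of Gpc2 and Gpc5, not printed, reach into the annotated span of the gene. The single GCGTG of Gpc5, 9 bases before the listed start, lies in that span. TATAA, present in 16.7% of all start regions, was found in Sdc1 and Sdc4 among the 7, at 10 and 29 bases before the start. GC content was 51.2% in the Gpc5 region and 66.0% to 76.4% in the others, and the shares over all start regions were not matched for it. The matches describe letters only.

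Sdc1 and Sdc4 were higher in KPH2 tumours, by 2.47-fold and 1.99-fold over 7 tumours, and the other 7 tested members did not pass the test. These are 2 of 9 members where 1.96% of all genes tested passed, and 3 of 9 (with Gpc1) had an unadjusted p under 0.05 where 17.8% of all genes did. With KPH2 1 included, 0 of 9 passed (0.00675% of all genes, which is 1 gene) and 2 of 9 had an unadjusted p under 0.05 (14.7% of all genes). DESeq2 called 3 members over 7 tumours, where it called 7.2% of the genes it gave an adjusted p, and 1 over 8, where it called 4.06%. The members' median log2 fold change was -0.02, as was that of all genes tested.

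**Figure D1:**
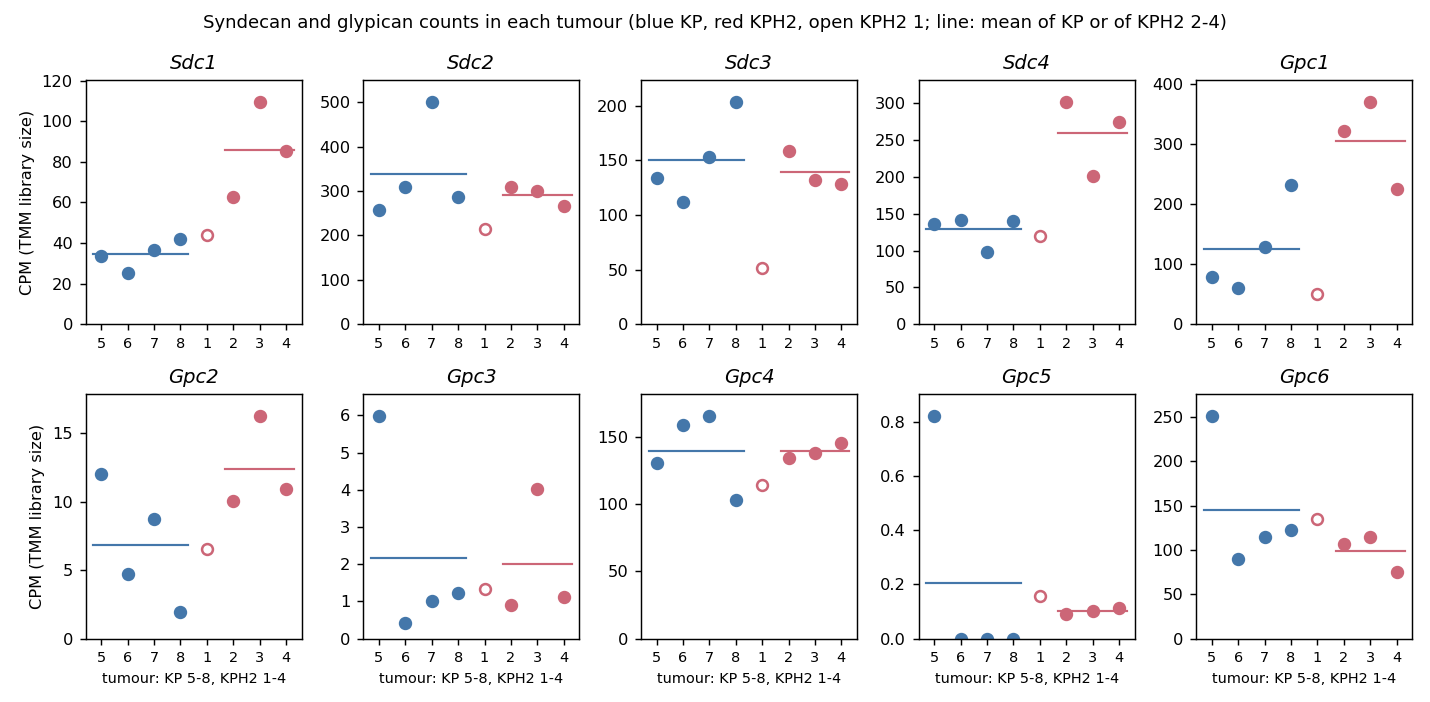
CPM of each member (linear axes from 0) in KP 5 to KP 8 (blue), KPH2 1 (open red) and KPH2 2 to KPH2 4 (filled red), with lines at the mean of KP and of KPH2 2 to KPH2 4. KPH2 2 to KPH2 4 lie above all KP tumours in Sdc1 and Sdc4, and KPH2 1 is the lowest of the 8 tumours in Sdc2, Sdc3 and Gpc1.

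Sdc1 (gene 20969, chromosome 12, 8771396 to 8793716), the syndecan of epithelia and plasma cells, was at 33.9, 25.4, 36.6 and 42.2 CPM in KP 5 to KP 8. In KPH2 2 to KPH2 4 it was at 62.7, 109.5 and 85.5 CPM, and in KPH2 1 at 44.2. All 4 KPH2 tumours were above all 4 KP tumours, KPH2 1 only just. The means were 34.5 ± 7.0 (SD, n = 4) and 85.9 ± 23.4 (SD, n = 3), a log2 fold change of 1.30 (SE 0.23, edgeR adjusted p = 0.0354). With KPH2 1 it was 1.12 (SE 0.28, edgeR adjusted p = 0.155, DESeq2 adjusted p = 0.0138). A 2-sided exact permutation test of log2 CPM gave p = 0.0286 with and without KPH2 1, the smallest these numbers of tumours allow. The direction held when each tumour was left out, with log2 fold changes of 1.09 to 1.49, but the edgeR adjusted p then rose to 0.0508 to 0.0895 whichever of the 7 it was, and over all 16 alternatives the adjusted p ran from 0.000108 (DESeq2) to 0.584 (edgeR with the muscle marker level as a covariate).

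Sdc4 (gene 20971, chromosome 2, 164424247 to 164443188), which works with integrins at focal adhesions and marks satellite cells, was at 136, 142, 98.1 and 140.5 CPM in KP 5 to KP 8. It was at 301, 201 and 274 CPM in KPH2 2 to KPH2 4. These 3 tumours lay above all KP tumours, while KPH2 1, at 119 CPM, lay inside the KP range. Means were 129 ± 20.8 (SD, n = 4) and 259 ± 51.9 (SD, n = 3), a log2 fold change of 0.99 (SE 0.19, edgeR adjusted p = 0.0418, exact permutation p = 0.0286). Including KPH2 1 lowered it to 0.79 (SE 0.27, edgeR adjusted p = 0.243, exact permutation p = 0.114). Without KPH2 3 it still passed (adjusted p = 0.0412), and without any other 1 of the 7 tumours it did not (adjusted p 0.0572 to 0.144), within a range of 0.000572 (DESeq2) to 0.9999 (edgeR with the epithelial marker level as a covariate) over 16 alternatives.

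Counted without a model, KPH2 2 to KPH2 4 lay wholly above KP in 2 of 9 members (Sdc1 and Sdc4), against 9.01% of all genes tested, and wholly below in 0, against 7.83%. Over 8 tumours only Sdc1 lay wholly above (3.75% of all genes) and 0 members wholly below (4.4%).

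Sdc2 and Sdc3 did not pass the test. Sdc2, a syndecan of mesenchymal cells, was at 257, 309, 500.3 and 286 CPM in KP 5 to KP 8, 215 in KPH2 1 and 309.6, 299 and 265 in KPH2 2 to KPH2 4. The groups overlapped, with KP 7 alone far above the rest, and the log2 fold change was -0.23 (SE 0.24, edgeR adjusted p = 0.674) with KP 7 and 0.03 without it. Sdc3, the syndecan of nerve and of satellite cells, was at 133, 112, 153 and 203 CPM in KP, 51.2 in KPH2 1 and 159, 132 and 128 in the other KPH2 tumours. Only KPH2 1 stood below the KP range, and the log2 fold change was -0.12 (SE 0.21, edgeR adjusted p = 0.815) over 7 tumours, -0.37 (SE 0.32) over 8 and 0.05 without KP 8.

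Among glypicans, Gpc1, a co-receptor for fibroblast growth factors that skeletal muscle also makes, had the lowest p. It was at 79.5, 59.8, 129 and 232 CPM in KP 5 to KP 8 and at 322, 370.4 and 225 in KPH2 2 to KPH2 4, while KPH2 1 was the lowest of all 8 at 51.2. KP 8 reached into the KPH2 range. The log2 fold change was 1.28 (SE 0.43, edgeR adjusted p = 0.179, exact permutation p = 0.0857) over 7 tumours and 0.95 (SE 0.59, edgeR adjusted p = 0.495) over 8. DESeq2 called it over 7 tumours (adjusted p = 0.0417), the adjusted p over all 16 alternatives ran from 0.0417 to 0.949, and without KP 8 the log2 fold change was 1.75 (adjusted p = 0.0630).

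Gpc4, which aids fibroblast growth factor and Wnt signalling, was at 130.1, 159, 165 and 103 CPM in KP 5 to KP 8, 114 in KPH2 1 and 134, 138 and 145 in KPH2 2 to KPH2 4. The latter lay inside the KP range, with a log2 fold change of -0.02 (SE 0.19, edgeR adjusted p = 0.975). Gpc6, a glypican of growing cartilage and bone, was at 251, 90.3, 115 and 123 CPM in KP, 135 in KPH2 1 and 107, 115 and 74.7 in the other KPH2 tumours. KP 5 was far above the rest, and the log2 fold change of -0.56 (SE 0.35, edgeR adjusted p = 0.453) shrank to -0.15 without it.

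The remaining glypicans were scarce. Gpc2, known from developing neurons, was at 12.03, 4.75, 8.75 and 1.91 CPM in KP, 6.58 in KPH2 1 and 10.1, 16.3 and 10.9 in KPH2 2 to KPH2 4, a log2 fold change of 0.84 (SE 0.54, edgeR adjusted p = 0.472) that was 1.29 without KP 5 and 0.51 without KP 8. Gpc3, an oncofetal protein that restrains Hedgehog signalling, had counts of 80, 3, 7 and 16 in KP, 17 in KPH2 1 and 10, 40 and 10 in KPH2 2 to KPH2 4. The log2 fold change of -0.16 (SE 0.89, edgeR adjusted p = 0.951) turned to 1.13 without KP 5, the tumour with the most Gpc3 counts. Gpc5, whose counts were 11 in KP 5, 0 in KP 6 to KP 8, 2 in KPH2 1 and 1 in each of the other 3, was filtered out before testing. A count of 0 there allows up to 0.419, 0.437 and 0.229 CPM in KP 6, KP 7 and KP 8, and this covers counting error only. KP 5 was the highest of the 8 tumours for Gpc3, Gpc5 and Gpc6.

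**Figure D2:**
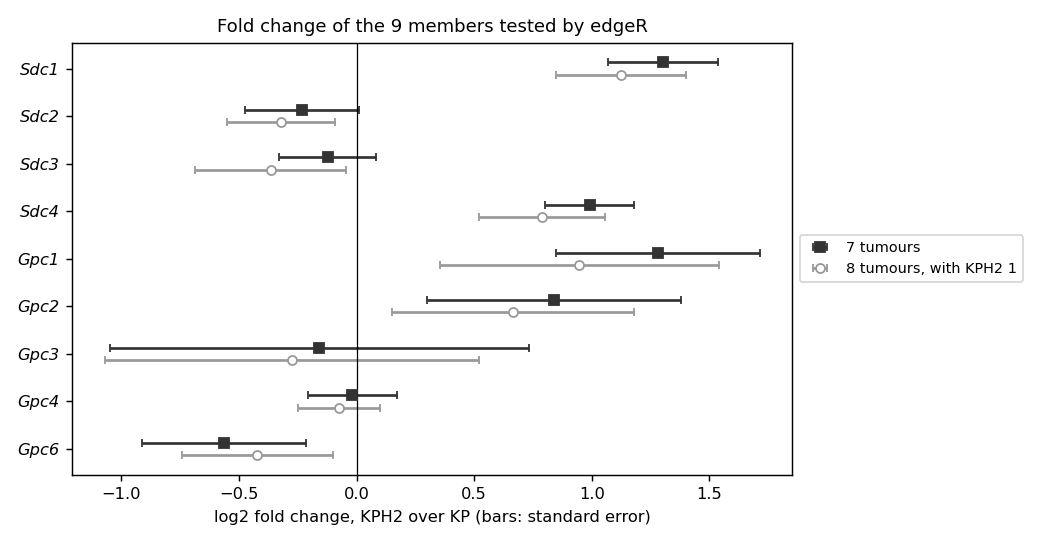
log2 fold change, KPH2 over KP, with its standard error for the 9 members tested by edgeR, over 7 tumours (filled squares) and over 8 (open circles). Sdc1 (1.30), Gpc1 (1.28) and Sdc4 (0.99) are the highest over 7 tumours, and each is lower once KPH2 1 is included.

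To compare genes with each other, CPM was divided by exon length in kilobases. In KP tumours the mean CPM per kilobase was 95.9 ± 31.2 (SD, n = 4) for Sdc2, then 52.6 ± 8.5 for Sdc4, 52.5 ± 10.7 for Gpc4, 39.5 ± 19.7 for Gpc6, 30.3 ± 7.9 for Sdc3, 29.9 ± 18.4 for Gpc1 and 10.9 ± 2.2 for Sdc1. Gpc2 (2.65), Gpc3 (0.975) and Gpc5 (0.120) followed. Sdc2 stood clear of the next gene, and Sdc4, Gpc4, Gpc6, Sdc3 and Gpc1 overlapped from neighbour to neighbour, as did Gpc2, Gpc3 and Gpc5. In KPH2 2 to KPH2 4 the mean CPM per kilobase was 105 ± 21.1 (SD, n = 3) for Sdc4, 82.6 ± 6.6 for Sdc2, 73.2 ± 17.8 for Gpc1 and 52.4 ± 2.1 for Gpc4, each overlapping its neighbour. Sdc3 (28.0), Sdc1 (27.2) and Gpc6 (27.0) were next and not separated, and Gpc2 (4.80), Gpc3 (0.911) and Gpc5 (0.0590) were again last.

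The makeup of each family per kilobase also differed between tumours. Sdc2 made up 42.1% to 63.3% of summed syndecan signal in KP tumours, 45.6% in KPH2 1 and 31.4% to 37.3% in KPH2 2 to KPH2 4. Sdc4 made up 17.8% to 33.4%, 36.2% and 35.9% to 46.8%, and Sdc1 4.58% to 6.94%, 10.5% and 7.58% to 15.2%, in the same order. KPH2 1, low in summed syndecans (134 CPM per kilobase against 166 to 224 in KP and 228 to 262 in KPH2 2 to KPH2 4), lay above the KP range in its shares of Sdc1 and Sdc4. Among glypicans, Gpc6 made up 24.4% to 47.4% in KP, 38.7% in KPH2 1 and 15.3% to 18.1% in the others. For Gpc1 these shares were 13.2% to 43.0%, 12.8% and 40.3% to 49.2%. These shares use the values already given and were not tested.

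**Figure D3:**
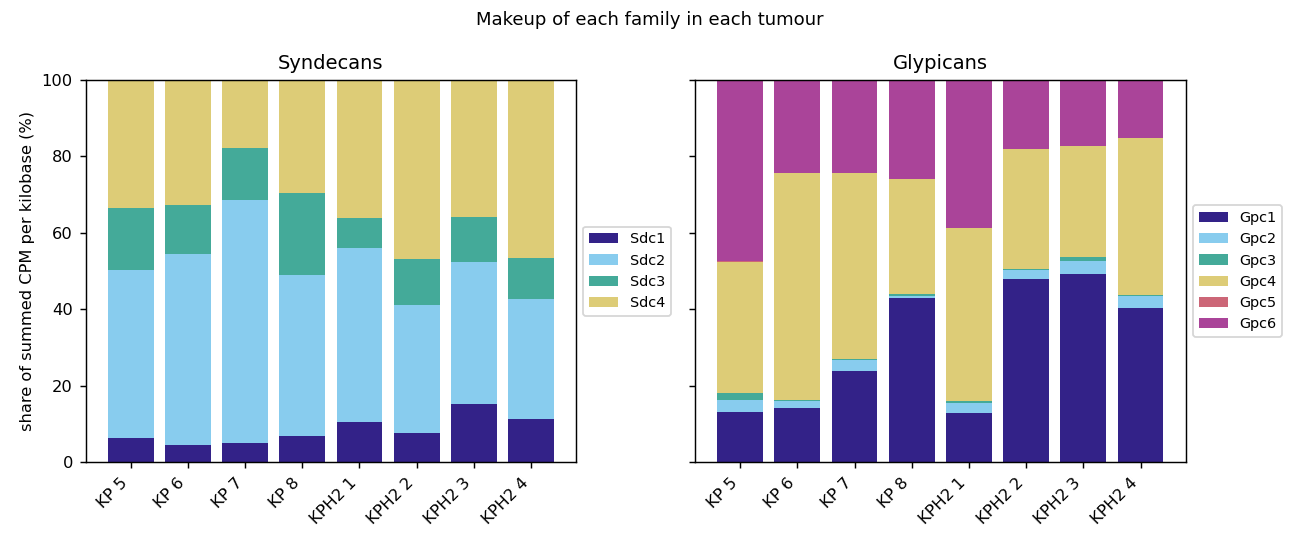
Share of each member (%) in the summed CPM per kilobase of its family, 1 stacked bar per tumour. Sdc2 makes up 42.1% to 63.3% of syndecans in KP and 31.4% to 37.3% in KPH2 2 to KPH2 4, and Gpc1 reaches 40.3% to 49.2% of glypicans there.

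The muscle and keratin markers moved with these members unequally. Gpc1 was highest in KPH2 3 and KPH2 2, which also had the most muscle marker RNA, and lowest in KPH2 1, which had the least. Within KP they did not go together. KP 5 and KP 8 had similar muscle marker sums (3497 and 3613 CPM) but Gpc1 at 79.5 and 232 CPM. KP 7 had less muscle marker RNA (1969 CPM) than KP 5 and more Gpc1 (129 CPM). Sdc4 was higher in KPH2 2 and KPH2 4, the tumours with most Krt8 (267 and 282 CPM, against 6.93 in KPH2 3 and 0.699 to 2.02 elsewhere), than in KPH2 3. Sdc1 was highest in KPH2 3, the tumour with the most muscle marker RNA, and lowest in KP 6. With the muscle marker level as a covariate the log2 fold changes were 1.04 (SE 0.39) for Sdc1, 1.08 (SE 0.34) for Sdc4 and 0.43 (SE 0.68) for Gpc1. With the epithelial marker level, a covariate added after seeing the data, they were 1.82 (SE 0.50), 0.26 (SE 0.41) and 1.97 (SE 1.01). None of these 6 values passed the edgeR test (adjusted p 0.362 to 0.9999). Over the 7 tumours both marker levels split fully by group. Muscle markers had a mean log2 CPM of 3.47 to 4.64 in KP and 4.96 to 7.26 in KPH2 2 to KPH2 4. For epithelial markers it was -0.79 to -0.27 and 0.43 to 1.83. These fits therefore cannot separate group from marker level. The part of other cell types in the differences was not tested.

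**Figure D4:**
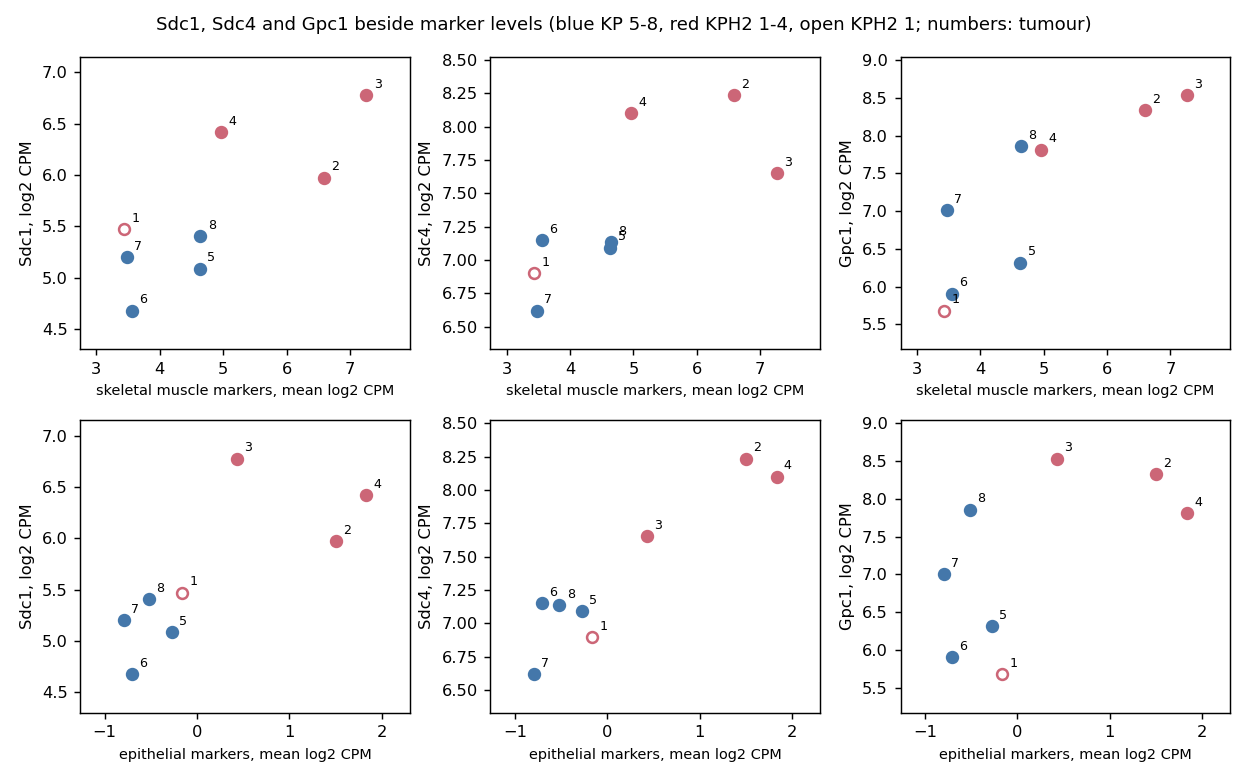
log2 CPM of Sdc1, Sdc4 and Gpc1 in each tumour against the mean log2 CPM of skeletal muscle markers (top) and of epithelial markers (bottom), numbered by tumour (blue KP, red KPH2, open KPH2 1). KPH2 2 and KPH2 3 lie farthest right for muscle markers and KPH2 2 and KPH2 4 for epithelial markers.

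The genes whose pattern over the 8 tumours was closest to Sdc1, by root mean square difference of centred log2 CPM, were 4930452B06Rik (0.142), Olfml2b (0.154) and 2900026A02Rik (0.168). Those closest to Sdc4 were Itga6 (0.130), the laminin-binding α6 integrin, Hdac6 (0.192), a cytoplasmic deacetylase, and Mtss1 (0.198), a membrane-bending actin regulator. Itga6 was at 155 to 246 CPM in KP, 213 in KPH2 1 and 349 to 559 in the other KPH2 tumours.

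Of 44 tested genes that build, trim, shed or bind these proteoglycans, 3 passed over 7 tumours by edgeR (6.82%, beside 1.96% of all genes), while DESeq2 called 4 of 46 (8.70%, beside 7.2% of all genes), the fourth being Prkca. Of 11 enzymes of the linker and of chain polymerisation tested, 0 passed upwards and 1 downwards (median log2 fold change -0.06). That was Xylt1, a xylosyltransferase that begins the chains on the core protein. It was at 34.6, 50.7, 59.5 and 41.8 CPM in KP 5 to KP 8, 28.7 in KPH2 1 and 18.7, 16.3 and 22.0 in KPH2 2 to KPH2 4. All KPH2 tumours were below all KP tumours, and Xylt1 fell by 1.31 on the log2 scale (SE 0.23, edgeR adjusted p = 0.0343), or by 1.12 with KPH2 1 (edgeR adjusted p = 0.123, DESeq2 adjusted p = 0.00317). Of 10 sulfation and epimerisation enzymes tested (of 16), 0 passed in either direction (median -0.08). The smallest p belonged to the sulfotransferases Hs6st2 (log2 fold change 0.83, SE 0.28), Hs3st1 (-2.53, SE 1.34) and Hs3st3b1 (-0.76, SE 0.52), with edgeR adjusted p from 0.172 to 0.505. Hs6st2 was highest in KPH2 1 (35.3 CPM, against 8.07 to 11.5 in KP and 10.3 to 20.6 in the other KPH2 tumours), and over 8 tumours its log2 fold change was 1.19 (SE 0.35, edgeR adjusted p = 0.194, DESeq2 adjusted p = 0.0361). Hs3st1 was at 40.1 CPM in KP 7, where the other 7 tumours had 0.699 to 5.16.

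Chain editing enzymes gave 0 calls among 3 tested (median -0.90). The heparanase Hpse was at 12.2 to 32.0 CPM in KP, 9.25 in KPH2 1 and 7.33 to 14.9 in the other KPH2 tumours (log2 fold change -1.03, SE 0.39, edgeR adjusted p = 0.219). The extracellular sulfatase Sulf1 had -0.90 (SE 0.40, adjusted p = 0.292) and its relative Sulf2 0.07 (SE 0.23, adjusted p = 0.914). Among 10 genes of shedding and release tested, 0 passed upwards and 1 downwards (median -0.29). This was Mmp2, a gelatinase that can cleave syndecan ectodomains, at 356, 743, 739 and 493 CPM in KP 5 to KP 8, 418 in KPH2 1 and 187, 256 and 149.9 in KPH2 2 to KPH2 4. It fell by 1.58 on the log2 scale (SE 0.32, edgeR adjusted p = 0.0491), but KPH2 1 lay inside the KP range and with it the adjusted p was 0.215 by edgeR and 0.0361 by DESeq2.

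Of 10 intracellular partners of syndecans, 1 passed upwards and 0 downwards (median -0.06). It was Ezr, ezrin, which links membrane proteins including syndecan tails to actin and is abundant in epithelia. Ezr was at 31.8, 36.8, 36.3 and 33.8 CPM in KP, 78.1 in KPH2 1 and 97.1, 78.0 and 133 in KPH2 2 to KPH2 4. All 4 KPH2 tumours, KPH2 1 included, were above all KP tumours, with a log2 fold change of 1.56 (SE 0.20, edgeR adjusted p = 0.0173) over 7 tumours and 1.48 (SE 0.19, edgeR adjusted p = 0.0681, DESeq2 adjusted p = 6.00e-08) over 8. Prkca, a kinase that binds the Sdc4 tail and is named here for its DESeq2 call, was at 171, 106, 117 and 83.8 CPM in KP 5 to KP 8, 155 in KPH2 1 and 61.5, 67.5 and 63.4 in KPH2 2 to KPH2 4. The latter were below all KP tumours and KPH2 1 was not, with a log2 fold change of -0.91 (SE 0.24, edgeR adjusted p = 0.0926, DESeq2 adjusted p = 0.0143) over 7 tumours and -0.45 (SE 0.35, edgeR adjusted p = 0.594, DESeq2 adjusted p = 0.608) over 8.

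**Figure D5:**
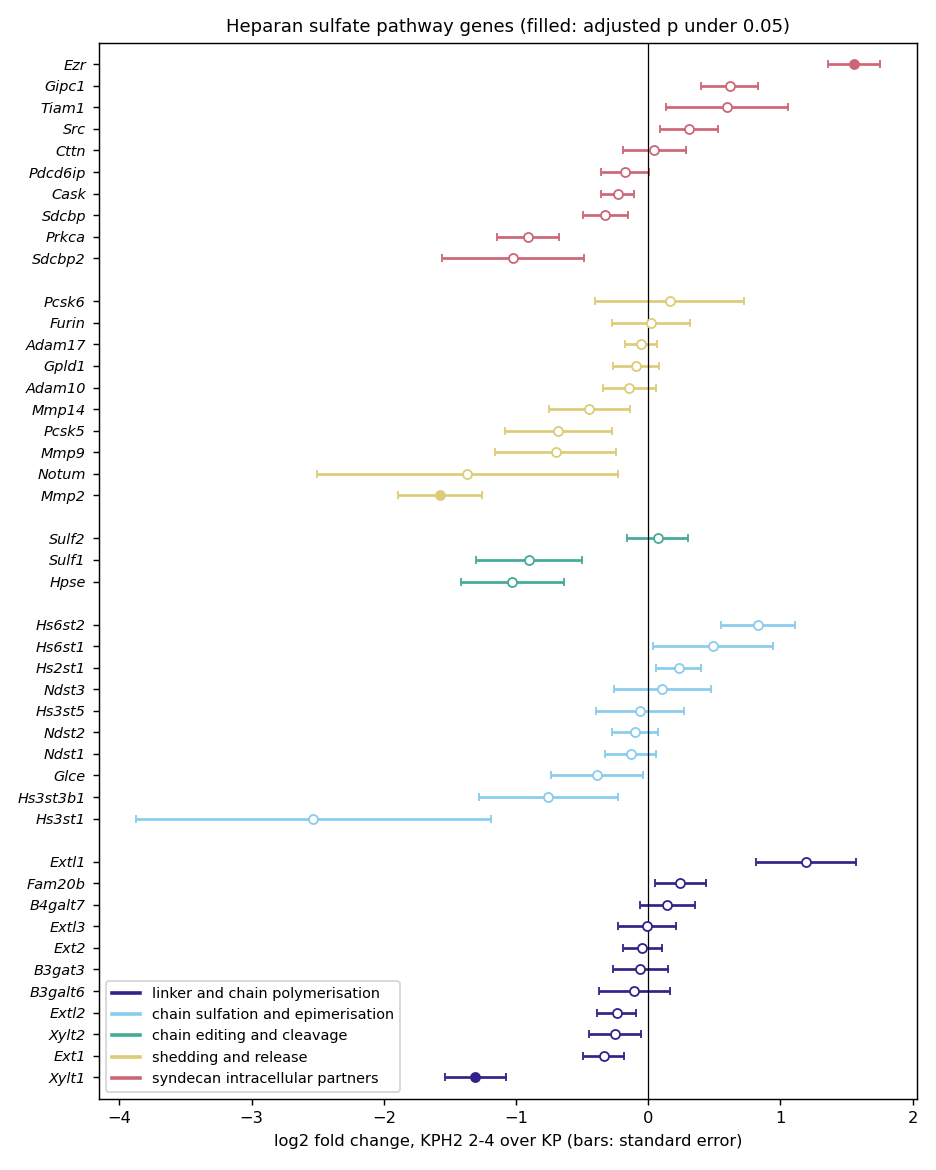
log2 fold change, KPH2 2 to KPH2 4 over KP, with its standard error for the tested genes of heparan sulfate synthesis, editing, shedding and syndecan binding, coloured by list. Filled points (Ezr at 1.56, Xylt1 at -1.31 and Mmp2 at -1.58) passed an adjusted p of 0.05.

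Reads of some members may not be separable from those of neighbours. In GENCODE M21, exons of Gpc1 meet Ankmy1 and Gm29481 on the other strand, Gpc2 overlaps Gm43720 on the same strand, and Sdc3, Gpc3 and Gpc5 meet antisense or processed transcripts, whereas Sdc1, Sdc2, Sdc4, Gpc4 and Gpc6 meet no other gene at an exon. The kit marked strand, but the strand setting of the counting was not given in the sources used here.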

How the data were processed

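The 8 libraries were made from FFPE tumour sections with a stranded, ribosomal RNA-depleting kit. The authors called bases with CASAVA 1.8.2, used STAR 2.4 for alignment to GRCm38 and htseq-count (HTSeq 0.6.1) for unique alignments on RefSeq transcripts, and the deposited values used here are raw read counts per gene. Their tables of log2 values regularised by DESeq2 were not used. Counts were tested with edgeR 4.0.16 in R 4.3.3 (TMM, filterByExpr with minimum count 10 and minimum total 15, robust quasi-likelihood test, Benjamini-Hochberg adjustment over all genes tested, threshold 0.05), KPH2 against KP without covariates, over 7 tumours and over 8. Standard errors of edgeR fold changes are the log2 fold change divided by the root of the F statistic. Levels are CPM with TMM sizes over all 8 libraries, log2 CPM uses a prior count of 2, and exon lengths come from GENCODE M21 transcripts linked to RefSeq. Single genes were also tested by a 2-sided exact permutation test. DESeq2 1.42.0 was an alternative, as were other scalings and filters, marker covariates and leaving out each tumour. The closest patterns were ranked by root mean square difference. The tests were checked on simulated data, in which DESeq2 found more of the changed genes than edgeR and also called more unchanged ones, with and without changed genes present.

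The members, gene lists and tests were chosen with earlier results of these data known, so no list is independent evidence. The genes named are the 10 members, Epas1, the genes of each pathway list past the threshold (or else the 3 with the smallest p) and the 3 genes closest to each called member. The labels do not tie each tumour to its own mouse, so p-values measure the spread between these tumours, and no batch was named. The closest pair of libraries of a group differed by far more than sampling noise (chi-square per degree of freedom 30.6 for KP 6 and KP 8). An allele that both groups share and a marker gene are not reported here.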

Additional observations from a re-analysis of the deposited data

Results flagged for a closer look

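Among the 20 sets of 4 tumours examined (each member in each group), Dixon's ratio passed its 95% critical value for 2, where chance alone passes about 1 in 20 sets. For Sdc4, KP 7 was lower than the other KP tumours (98.1 CPM against 136 to 142, ratio 0.890). For Gpc5, KP 5 was the only KP tumour with counts (11). Its ratio of 1 is fixed by the other 3 tumours being tied at 0, so it says nothing beyond those counts, and 1 set (Sdc4) is left to read against the chance rate.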

How the results depend on the processing

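Over 7 tumours 292 genes passed, 185 higher and 107 lower in KPH2. The count was 1 with all 8 tumours, 1175 by DESeq2, 3 with the muscle covariate, 0 with the epithelial covariate (990 at an unadjusted p under 0.05) and 55 (without KPH2 2) to 349 (without KP 5) when 1 tumour was left out. The 2 members called became 0 with all 8 tumours, 0 with either covariate (at an unadjusted p under 0.05, 3 members (Sdc1, Sdc4 and Gpc6) and 7.43% of all genes with the muscle covariate, and 1 member (Sdc1) and 6.66% with the epithelial one) and 0 to 1 when 1 tumour was left out, the 1 being Sdc4 without KPH2 3. With other scalings, no filter, a mean count of at least 50 or no robust estimates, Sdc1 and Sdc4 were the members called. Over 8 tumours DESeq2 called 648 genes and 1 member, and leaving out 1 tumour gave 0 to 292 genes and 0 to 2 members, the upper values without KPH2 1. The Epas1 log2 fold change was -0.81 by DESeq2, now past the threshold (adjusted p = 0.0115), and -0.96 to -0.71 when 1 tumour was left out.

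Signs turned only in members that did not pass. With the muscle covariate the log2 fold change over 7 tumours became 0.070 for Sdc2 and 0.38 for Gpc4 (and, with the sign kept, -1.44 for Gpc6 and -2.40 for Gpc3), and with the epithelial covariate 0.32 for Sdc2, 0.57 for Gpc3 and 0.15 for Gpc4. Leaving out 1 of 7 tumours gave -0.34 to 0.027 for Sdc2 (above 0 without KP 7), -0.24 to 0.046 for Sdc3 (without KP 8), -1.14 to 1.13 for Gpc3 (without KP 5, KPH2 2 or KPH2 4) and -0.15 to 0.080 for Gpc4 (without KP 6, KP 7 or KPH2 2). Over 8 tumours the ranges were -0.97 to 1.004 for Gpc3 (above 0 without KP 5) and -0.20 to 0.024 for Gpc4 (without KP 7). The cause of these changes was not tested. By CPM without length, Sdc3, Gpc6, Gpc4 and Sdc4 ranked 2, 3, 4 and 5 in KP. No paired analysis was possible because the replicate numbers of KP (5 to 8) and KPH2 (1 to 4) are not shared. With 4 tumours against 3, a group mean of Gpc2, Gpc3 or Gpc5 rests on counts from 0 to 162 per tumour.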
